A study of Mus musculus with 42 samples.

Results

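Vehicle-treated granulosa cells were compared with vehicle-treated induced pluripotent stem cells (iPSCs) across autosomal genes, with attention to genes of hormone action, detoxification, metabolism and adhesion. The comparison used the 3 control libraries of granulosa cells and the 3 control libraries of the first iPSC experiment, which are 6 of the 42 RNA-seq libraries of the study. Both groups had received the ethanol vehicle of bisphenol S (BPS) in gassed medium in sealed flasks for 24 h and had then been kept without it for a further 24 h. Neither group had received BPS. The granulosa cells were a primary culture of preantral follicles picked from the ovaries of prepubertal female littermates, pooled and plated in medium with fetal bovine serum, from which non-adherent oocytes were washed away. The iPSCs were 1 male line, reprogrammed from the embryonic fibroblasts of a single fetus of a strain that carries a doxycycline-inducible cassette of Pou5f1, Sox2, Klf4 and Myc, and had been moved from feeder cells to serum-free medium with kinase inhibitors and leukemia inhibitory factor for the last passages before exposure. Cell type, sex (XX against XY), cell preparation and culture medium therefore changed together and cannot be told apart, and only genes on the autosomes were counted. Sertoli cells in vehicle (a primary culture of prepubertal testes) and granulosa cells and iPSCs given 1 μM BPS were used in further comparisons. A second iPSC experiment, in vehicle and at 1 μM BPS, stood in for the first in some alternatives. Other alternative fits took in primordial germ cell-like cells in vehicle, or all 42 libraries, among them iPSCs given 50 or 100 μM BPS. Each group had 3 libraries. Because the flasks of a group came from 1 preparation or 1 line, p-values measure the spread between flasks, which may be technical.

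Granulosa cells are the somatic cells that surround the oocyte. They respond to gonadotropins, convert androgens to estrogens with the neighbouring theca cells, secrete inhibins and activins, and are coupled to each other and to the oocyte by gap junctions. iPSCs resemble the early epiblast: they divide rapidly, form tight epithelial colonies held together by E-cadherin, and depend on a network of transcription factors around Pou5f1, Sox2 and Nanog. Estrogen receptors are ligand-activated transcription factors and the targets of estrogen mimics such as bisphenols. The aryl hydrocarbon receptor is a sensor of planar aromatic compounds that induces cytochrome P450 enzymes, the first step (phase I) of detoxification, after which phase II enzymes attach glutathione, glucuronic acid or sulfate.

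Each library held 27782761 to 34341910 reads, recovered from the deposited values. The levels below are CPM, read counts scaled to a common library size, and fold changes are granulosa cells relative to iPSCs. A gene was tested if it reached a CPM of 0.5 in at least 3 libraries, and was called at a limma adjusted p of 0.05 or less. Of 15627 autosomal genes tested, 7023 were called higher in granulosa cells (44.9%) and 7273 were called lower (46.5%). The groups' libraries did not overlap for 92.3% of the genes tested. Since almost every gene was called, the text below counts genes that were called and also at least 2-fold different, which 4596 genes were on the higher side (29.4% of those tested) and 4093 on the lower side (26.2%). The median log2 fold change over all autosomal genes tested was -0.03. Shares of gene lists are to be read against 29.4% and 26.2%.

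The cell type markers followed the labels. Every gene given below as higher or lower passed the limma test unless its adjusted p is given or it is said not to have been tested. Foxl2 (chr9:98955607-98958126), the transcription factor that maintains granulosa cell fate, stood at 137, 144 and 140 CPM in the granulosa libraries and at 0.143, 0.167 and 0.183 CPM in the iPSC libraries. Nanog (chr6:122707489-122714633), a core pluripotency factor, stood at 0.736, 0.584 and 0.444 CPM in granulosa cells and at 703, 696 and 668 CPM in iPSCs. Neither gene overlapped between the groups, with log2 fold changes of 9.49 ± 0.11 (SE) for Foxl2 and -10.15 ± 0.148 for Nanog. All 26 pluripotency genes on the list were tested and all 26 were called at least 2-fold lower in granulosa cells, with a median log2 fold change of -10.22, and 4 of them (Prdm14, Lin28a, Fgf4 and Nodal) had no read in any granulosa library. Of 17 tested autosomal genes of granulosa cell identity, 13 were at least 2-fold higher and none was called lower, with a median of 6.76. Nr0b1, an identity gene on the X chromosome, was not counted. It stood at 0.3 CPM in granulosa cells against 57.2 CPM in iPSCs. Anti-Müllerian hormone (Amh) and the FSH receptor (Fshr) were low in granulosa cells, at means of 0.708 and 0.451 CPM, and Fshr, which had no read in iPSCs, did not pass the filter and was not tested against them. Aromatase (Cyp19a1) was not analysed here.

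The 10 largest increases were Aldh1a1, Inhba, Col3a1, Hsd3b1, Lox, Acta2, Ankrd1, Thbs1, Col8a1 and Akr1c14. Aldh1a1, which makes retinoic acid from retinal, was at 2247, 2148 and 2116 CPM in granulosa cells and at 2 reads in all iPSC libraries together, a ratio of 90135 with a 95% counting interval (Clopper-Pearson) of 25691 to 766345. Inhba, the activin and inhibin beta A subunit, was at 1121, 1039 and 1083 CPM in granulosa cells and had no read in iPSCs, at least 30769-fold higher when iPSCs are given a floor of 3 reads over the group. Hsd3b1, which oxidises pregnenolone to progesterone, was at least 16328-fold higher by the same floor. The 10 largest decreases were Trh, Dppa5a, Tdh, Zfp42, Pou5f1, L1td1, Fgf4, Lin28a, Esrrb and Triml2. Trh, which encodes thyrotropin-releasing hormone, was at 1089, 1061 and 999 CPM in iPSCs and had no read in granulosa cells, at least 33519-fold lower. Pou5f1 fell from a mean of 747 CPM in iPSCs to 3 reads in all granulosa libraries, but it has a further entry in the table, so its reads may have been split. The part of the cassette in the reads of Pou5f1, Sox2, Klf4 and Myc was not tested. Genes with a mean of at least 5 CPM in 1 group and no read in the other numbered 67 for granulosa cells and 95 for iPSCs.

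Promoter sequences of a few genes are shown to set short motifs of known factors beside genes that differed between the cell types. RefSeq promoters (GRCm38.p6, 250 bases before to 50 after a start site) were found for 12042 of the 15627 tested autosomal genes. Each was searched on both strands for 4 sets of letters. GCGTG is the core bound by the aryl hydrocarbon receptor with its partner Arnt, and was held by 48.8% of the promoters. ATGCAAA belongs to the octamer bound by Pou5f1 and was held by 3.53%. TCACCCCAC belongs to the sterol response element of the Srebf factors and was held by 0.565%. AAGGTCA is a site of Nr5a1 and was held by 3.28%. Cyp1b1 and Cyp1a1, which differed in opposite directions between the cell types, each held GCGTG once, on the strand opposite to transcription in Cyp1b1 and on the same strand in Cyp1a1. Capitals mark the match, read as the reverse complement where it lies on the opposite strand.
Cyp1b1 (chr17:79715012-79715311, minus strand): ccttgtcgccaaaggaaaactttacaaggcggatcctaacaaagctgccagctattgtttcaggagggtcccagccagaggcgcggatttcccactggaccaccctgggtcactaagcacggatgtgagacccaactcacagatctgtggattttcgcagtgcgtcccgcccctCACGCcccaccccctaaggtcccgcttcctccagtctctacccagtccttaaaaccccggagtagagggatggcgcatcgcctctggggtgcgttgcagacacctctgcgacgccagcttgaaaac
Cyp1a1 (chr9:57697363-57697662, plus strand): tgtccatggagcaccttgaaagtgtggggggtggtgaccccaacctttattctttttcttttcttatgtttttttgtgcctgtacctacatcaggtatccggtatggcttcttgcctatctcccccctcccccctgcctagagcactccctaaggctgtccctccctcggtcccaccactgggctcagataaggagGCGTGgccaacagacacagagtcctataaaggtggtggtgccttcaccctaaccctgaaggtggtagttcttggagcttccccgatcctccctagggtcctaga
Nanog and Zfp42, a gene of naive pluripotency also known as Rex1, are shown since both held the octamer letters once, on the opposite strand, while the windows of Pou5f1 and Fgf4 did not hold them.
Nanog (chr6:122707239-122707538, plus strand): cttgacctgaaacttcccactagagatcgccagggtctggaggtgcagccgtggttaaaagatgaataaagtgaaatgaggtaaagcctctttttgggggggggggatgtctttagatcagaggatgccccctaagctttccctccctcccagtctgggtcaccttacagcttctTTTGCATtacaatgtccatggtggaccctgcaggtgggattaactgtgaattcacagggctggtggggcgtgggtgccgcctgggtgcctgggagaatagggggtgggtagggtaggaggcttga
Zfp42 (chr8:43306960-43307259, minus strand): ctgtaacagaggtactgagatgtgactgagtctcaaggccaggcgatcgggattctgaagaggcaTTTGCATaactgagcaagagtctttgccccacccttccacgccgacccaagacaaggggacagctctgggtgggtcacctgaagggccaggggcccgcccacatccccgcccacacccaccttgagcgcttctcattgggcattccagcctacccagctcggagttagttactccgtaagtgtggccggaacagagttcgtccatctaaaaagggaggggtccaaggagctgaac
Hmgcs1, an early enzyme of cholesterol synthesis, held the sterol letters once on the same strand. The windows of Sc5d and Hsd17b7 did not hold them, which is true of nearly all promoters, since only 0.565% held these letters. Windows of the other cholesterol synthesis genes are not given here, so the letters cannot be set against the direction of change.
Hmgcs1 (chr13:119690101-119690400, plus strand): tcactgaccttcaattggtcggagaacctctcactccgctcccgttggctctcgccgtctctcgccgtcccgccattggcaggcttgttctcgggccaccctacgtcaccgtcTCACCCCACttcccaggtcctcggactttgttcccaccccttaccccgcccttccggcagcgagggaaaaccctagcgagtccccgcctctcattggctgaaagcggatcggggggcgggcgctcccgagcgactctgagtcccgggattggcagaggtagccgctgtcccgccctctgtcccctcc
The Nr5a1 letters were not in the windows of Inha, Inhba, Cyp11a1, Hsd3b1 and Foxl2. These matches are a description of the letters and not of binding.

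Of the steroid hormone receptors, granulosa cells had far more estrogen receptor mRNA than iPSCs. Esr2, estrogen receptor beta, was at 89.3, 95.5 and 84.6 CPM in granulosa cells and at 0.107, 0.0999 and 0.146 CPM in iPSCs, a log2 fold change of 9.25 ± 0.148 (adjusted p = 9.76e-11). Esr1, estrogen receptor alpha, was at 25.4, 26.2 and 25.3 CPM in granulosa cells, while the iPSC libraries held 1 Esr1 read in all, a ratio of 2153 with a counting interval of 392 to 86467. Per kb of exon, granulosa cells held 26.7 CPM of Esr2 and 1.88 CPM of Esr1, so beta was the more abundant form. Pgr, the progesterone receptor, was at 5.48, 7.23 and 5.77 CPM against 1.75, 1.23 and 1.39 CPM in iPSCs, 4.23-fold higher with no overlap (log2 fold change 2.06 ± 0.178, adjusted p = 4.46e-06). Nr3c1, the glucocorticoid receptor, was at 58.4, 58.9 and 55 CPM against 11.5, 12.6 and 14.2 CPM, 4.49-fold higher. It was the only steroid receptor above a mean of 2 CPM in iPSCs. Nr3c2, the mineralocorticoid receptor, did not pass the test (0.646 against 0.748 CPM, adjusted p = 0.311), although it was lower by 1.43 on the log2 scale and was called when the second iPSC experiment stood in for the first. Gper1, the membrane estrogen receptor, did not pass the filter on low values (0.224 and 0.198 CPM). Thus 4 of the 5 autosomal steroid receptors tested were at least 2-fold higher in granulosa cells.

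**Figure D1:**
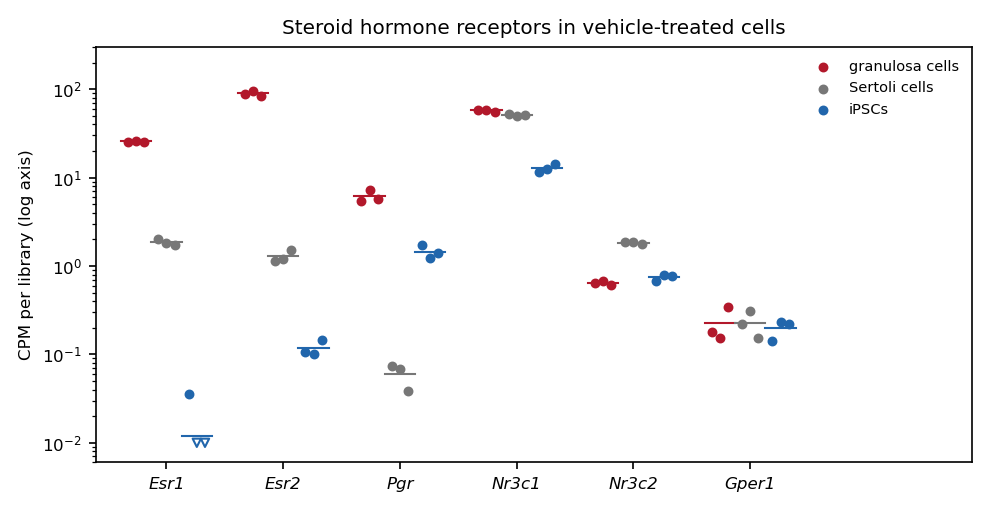
CPM of 6 steroid hormone receptors on a log axis in granulosa cells (red), Sertoli cells (grey) and iPSCs (blue), all in vehicle, with 1 point per library, the mean as a bar and an open triangle at the foot of the axis for a library with 0 reads. Esr1 and Esr2 are separated widely between granulosa cells and iPSCs, whereas Nr3c2 and Gper1 lie close together in these cell types.

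Sertoli cells, the somatic counterpart of granulosa cells in the testis, served as a second reference for these receptors and for identity genes, and this comparison shares the granulosa libraries with the main comparison. Here 78.9% of 14779 autosomal genes tested were called in either direction. Esr1, Esr2 and Pgr were also higher in granulosa cells than in Sertoli cells, with log2 differences of 3.77, 6.10 and 6.09, whereas Nr3c1 differed by 0.16 and Nr3c2 was lower (-1.47). Of the identity genes, Foxl2 (8.99), Nr5a2 (8.83), Hsd17b1 (3.96), Fst (3.73), Inhba (3.38) and Inha (2.59) were higher in granulosa than in Sertoli cells. Fam13a (2.45) and Amhr2 (0.18) were also higher. Wt1 (-2.77), Amh (-3.32) and Fshr (-3.06) were lower, and so were Kitl (-0.40), Wnt4 (-0.30) and Inhbb (-0.17). The X-linked Nr0b1 was lower too (-4.91). Gata4 and Nr5a1 were not called between the somatic types (adjusted p = 0.746 and 0.138), at means of 347 and 134 CPM in granulosa cells.

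Genes that respond to estrogen in many tissues were mostly higher in granulosa cells: 12 of 16 tested were at least 2-fold higher and 2 were at least 2-fold lower, with a median log2 fold change of 4.15. Igf1, insulin-like growth factor 1, was at 294, 271 and 264 CPM against a mean of 0.0693 CPM in iPSCs. Fhl2, a LIM-domain cofactor, was at a mean of 131 against 0.247 CPM. The estrogen-induced Greb1 was at 364, 409 and 390 CPM against 5.46, 5.4 and 5.85 CPM, a log2 fold change of 6.11 ± 0.0507. Ccnd1, the G1 cyclin D1, went the other way with 28.1 against 351 CPM, and so did Rara, the retinoic acid receptor alpha (34.8 against 74.9 CPM).

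Among other nuclear receptors, 19 of 34 tested were at least 2-fold higher in granulosa cells and 4 were at least 2-fold lower, with a median of 1.59. Nr5a1, the activator of steroidogenic genes, was at 130, 139 and 134 CPM in granulosa cells and at 2 reads in iPSCs, a ratio of 5507 (counting interval 1585 to 47288). Pparg, a fatty acid sensor, was at 46.7, 44.2 and 42.2 CPM against 1 read. Esrrb, an orphan receptor of the pluripotency network, was at 758, 746 and 738 CPM in iPSCs and at 0.0531 CPM in granulosa cells. Nr6a1, which represses Pou5f1 during differentiation, was at 38.2 CPM in iPSCs and 6.08 CPM in granulosa cells. Nr5a2, a relative of Nr5a1 that is used by both cell types, was 1.27-fold higher at 164 against 130 CPM.

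The proteins that hold steroid receptors ready for ligand or carry their signal to chromatin were not mostly higher in granulosa cells. Of 21 tested, 3 were at least 2-fold higher in granulosa cells and 8 were at least 2-fold lower, with a median of -0.34. The other 10 did not pass 2-fold in either direction. Over all autosomal genes tested the shares were 29.4% higher and 26.2% lower. Hsp90aa1, the inducible HSP90, was at 849, 834 and 823 CPM against 4824, 4794 and 4902 CPM, 5.79-fold lower (log2 fold change -2.53 ± 0.0258, adjusted p = 1.32e-11). The coactivator Ncoa3 was 4.3-fold lower (42.3 against 182 CPM). Ncoa7, an estrogen receptor-associated protein, was 8.61-fold higher (46.8 against 5.44 CPM), and Nrip1, a corepressor needed for ovulation, was 3.12-fold higher. Fkbp4, Ptges3, Stip1 and Hsp90ab1, further chaperones of the receptor complex, were lower by 2.06, 1.45, 1.24 and 1.18 on the log2 scale, and Fkbp5, which has a further entry in the table, was higher by 0.50. Granulosa cells had more mRNA of Esr1, Esr2, Pgr and Nr3c1 and less mRNA of 5 of the 6 listed chaperones. A link between these differences was not tested.

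Peptide hormone and growth factor receptors were higher in granulosa cells in 23 of 28 cases tested, by at least 2-fold, and lower in 3, with a median of 2.56. Ghr, the growth hormone receptor, was at 55.1, 53.1 and 58.5 CPM against 0.143, 0.233 and 0.183 CPM. Fgfr3 was at 13.3 against 0.145 CPM. Kit, the receptor for the stem cell factor that granulosa cells themselves make, was at 1.41 CPM in granulosa cells and at 227, 226 and 207 CPM in iPSCs, and its ligand Kitl had the reverse pattern (338 against 3.11 CPM). Erbb3, a neuregulin receptor, was 4.96-fold lower in granulosa cells. The LH receptor Lhcgr was low in granulosa cells, at 2.5, 3.9 and 2.49 CPM.

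The activin, BMP and TGF-beta family holds ligands, receptors and inhibitors that act within the follicle. Of 27 tested, 21 were at least 2-fold higher and 3 were at least 2-fold lower in granulosa cells, with a median of 3.17. Beside Inhba, the inhibin alpha subunit Inha was at 1288, 1360 and 1254 CPM against 0.286, 0.3 and 0.219 CPM. The AMH receptor Amhr2 was at a mean of 58.7 against 3.59 CPM, while its ligand Amh did not pass the test (adjusted p = 0.314). Bmp7 was at 0.491 CPM in granulosa cells against 21.3 CPM in iPSCs, and the activin receptor Acvr2b was at 15.2 against 74.2 CPM. Fst, which binds and inactivates activin, was expressed in both cell types (73 and 44.5 CPM).

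Steroid synthesis starts with the entry of cholesterol into mitochondria and runs through progesterone and androgens to estradiol. Of 19 genes tested, 11 were at least 2-fold higher and 3 were at least 2-fold lower, with a median of 1.41. Star, which carries cholesterol into mitochondria, was at 151, 157 and 155 CPM against 8.21, 9.46 and 9.65 CPM. Cyp11a1, which cuts the cholesterol side chain, was at 628, 691 and 632 CPM against 1.57, 1.33 and 1.97 CPM, a log2 fold change of 8.63 ± 0.122 (adjusted p = 5.55e-11). Hsd17b1, which reduces estrone to estradiol, was at 140, 138 and 140 CPM against 0.393, 0.266 and 0.219 CPM. Cyp17a1, the theca enzyme that makes androgens, was not tested, at 0.553 CPM in granulosa cells. Hsd17b14, which oxidises estradiol, was at 87.1, 83 and 88.4 CPM in iPSCs and at 0.147, 0.123 and 0.102 CPM in granulosa cells, 694-fold lower.

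**Figure D2:**
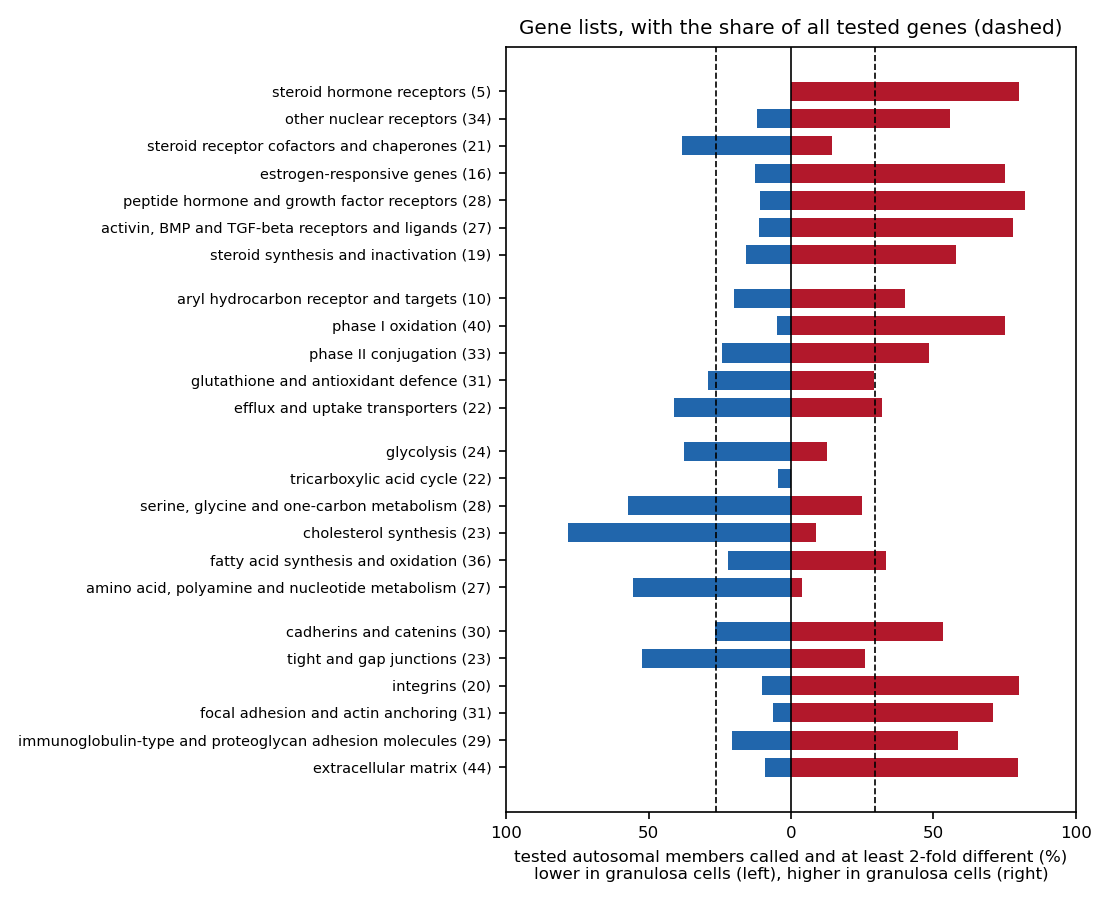
Percent of the tested autosomal members of 24 gene lists that were called and at least 2-fold higher (red, right) or lower (blue, left) in granulosa cells than in iPSCs, with the number tested in parentheses and the share over all autosomal genes tested as dashed lines (29.4% higher, 26.2% lower). Most hormone and adhesion lists reach far past the line on the higher side, and cholesterol synthesis reaches farthest on the lower side.

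Detoxification families held members that were higher in each of the cell types. In the list of the aryl hydrocarbon receptor and its targets, 4 of 10 tested genes were at least 2-fold higher in granulosa cells and 2 were at least 2-fold lower, with a median of 0.48. The receptor Ahr was at 80.5, 74.7 and 78.6 CPM against 10.2, 9.79 and 9.46 CPM, 7.93-fold higher. Its partner Arnt did not pass the test (84.2 against 85.3 CPM, adjusted p = 0.588), whereas the related Arnt2 was at 62.5 against 2.06 CPM. Of its classical targets, Cyp1b1 was at 103, 108 and 105 CPM in granulosa cells and at 0.678, 1.03 and 0.804 CPM in iPSCs, 126-fold higher (log2 fold change 6.94 ± 0.137, adjusted p = 2.96e-10). Cyp1a1 was at 0.0294, 0.0922 and 0 CPM in granulosa cells and at 8.5, 9.16 and 8.84 CPM in iPSCs, 218-fold lower (-7.17 ± 0.438, adjusted p = 3.98e-07). The granulosa mean of 0.0406 CPM was close to the floor of 3 reads over the group (0.0313 CPM), so this fold is imprecise. Nqo1, a quinone reductase that Nfe2l2 also induces, was at 6.51, 7.23 and 5.43 CPM against 113, 112 and 116 CPM. Granulosa cells had higher levels of Ahr and Cyp1b1 and lower levels of Cyp1a1 and Nqo1, and a link between these differences was not tested.

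Phase I enzymes were the detoxification group with the largest share on the higher side, with 30 of 40 tested at least 2-fold higher in granulosa cells, 2 at least 2-fold lower and a median of 2.78. Cyp26b1, which degrades retinoic acid, was at 173, 168 and 179 CPM against 0.428, 0.699 and 0.402 CPM, so both the retinoic acid-forming Aldh1a1 and the retinoic acid-degrading Cyp26b1 were high in granulosa cells. Reads of Aldh1a1 may be shared with its near-identical copy Aldh1a7 (24.5 against 0.0601 CPM). The soluble epoxide hydrolase Ephx2 was at 981 against 106 CPM. Cbr3, a carbonyl reductase, was 6.82-fold lower in granulosa cells (10.1 against 68.6 CPM).

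Phase II enzymes were more evenly divided, with 16 of 33 tested at least 2-fold higher, 8 at least 2-fold lower and a median of 0.96. Mgst1, a microsomal glutathione transferase, was at 165, 171 and 162 CPM against 0.178, 0.366 and 0.0731 CPM. Ugt1a7c, a glucuronosyltransferase, was at 7.45, 8.67 and 7.58 CPM and had no read in iPSCs, at least 225-fold higher, although it shares its last exons with the other Ugt1a genes. Gsta4, which conjugates the lipid peroxidation product hydroxynonenal, was at 9.51, 9.9 and 8.81 CPM against 343, 353 and 332 CPM, 36.4-fold lower. Sult4a1, a brain-type sulfotransferase, was at 0.567 against 23 CPM. Reads of the Gstm, Gstp and Gsta genes may be split between near-identical copies.

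Glutathione and antioxidant genes differed in both directions, with 9 of 31 tested at least 2-fold higher, 9 at least 2-fold lower and a median of 0.19. These shares are close to those over all autosomal genes tested (29.4% and 26.2%). Gpx2, the epithelial glutathione peroxidase, was at 186, 191 and 190 CPM in iPSCs and had no read in granulosa cells, at least 6041-fold lower. Gpx8, a peroxidase of the endoplasmic reticulum, was at 73.8, 74.6 and 72.8 CPM in granulosa cells against 2.89, 3.06 and 3.58 CPM. The secreted superoxide dismutase Sod3 was at 14.8, 17.3 and 16.9 CPM and had no read in iPSCs. Ggt1, which breaks down extracellular glutathione, was at 0.372 against 20 CPM. The metallothioneins Mt2 and Mt1, metal-binding proteins whose reads may be shared, were both lower in granulosa cells (31.8 against 1027 CPM and 73.4 against 624 CPM).

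Of the transporters of drugs and organic anions, 7 of 22 tested were at least 2-fold higher in granulosa cells and 9 at least 2-fold lower, with a median of -0.33. Slco3a1, a prostaglandin and organic anion carrier, was at 103 CPM on average against 0.25, 0.233 and 0.183 CPM, and the prostaglandin transporter Slco2a1 was at 25.8 against 0.624 CPM. Slc22a18, an imprinted carrier, was at 11.2, 9.96 and 10.8 CPM in iPSCs and 0.0512 CPM in granulosa cells, and Slco4a1 was at 14.3 and 0.362 CPM. Both P-glycoprotein genes, Abcb1a and Abcb1b, were lower in granulosa cells, by 2.78 and 1.65 on the log2 scale.

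**Figure D3:**
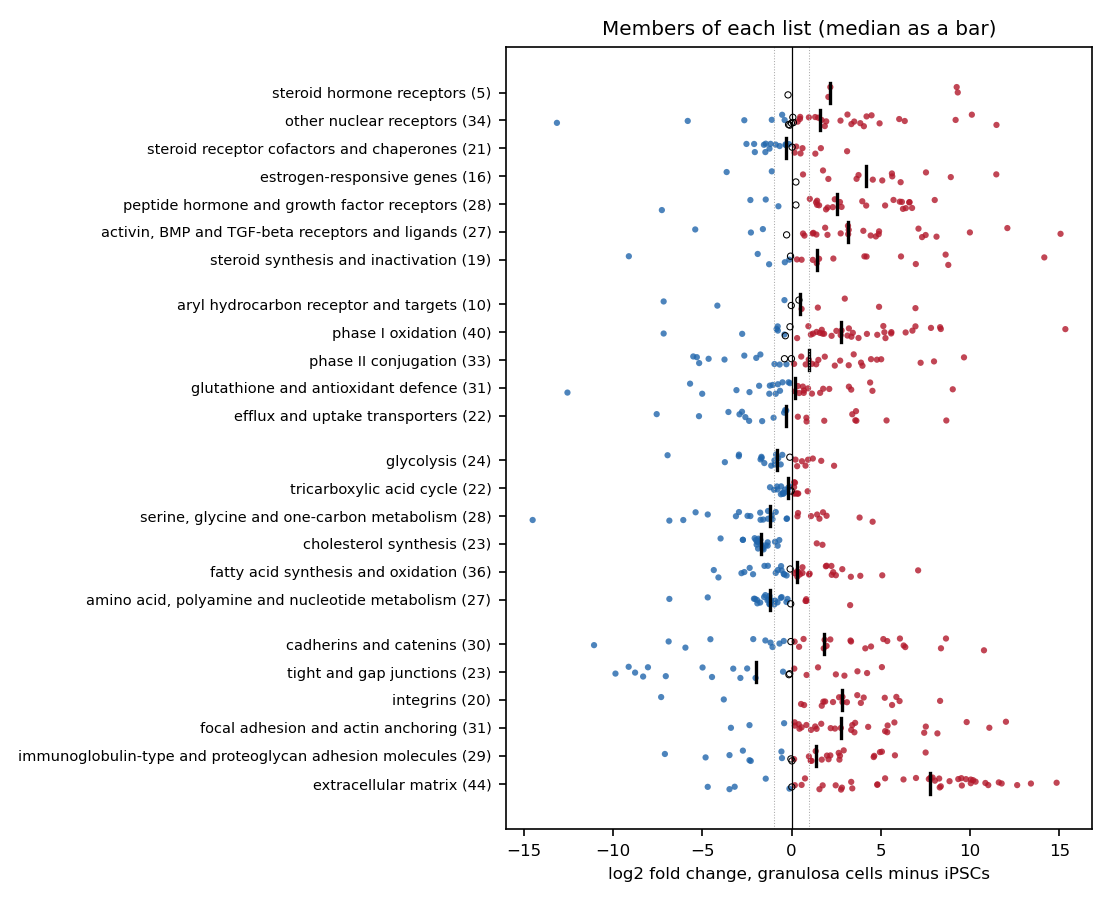
Log2 fold change (granulosa cells minus iPSCs) of each tested autosomal member of the 24 lists, filled red or blue where called higher or lower and open where not called, with the list's median as a black bar and dotted lines at 2-fold. Members of the tricarboxylic acid cycle lie between -1.21 and 0.90, while matrix genes reach 14.85.

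Metabolic genes were more often lower than higher in granulosa cells. Over the 6 metabolic lists, 25 of 160 tested autosomal genes were at least 2-fold higher in granulosa cells and 67 were at least 2-fold lower, with a median of -0.77. In glycolysis, 3 of 24 were at least 2-fold higher and 9 were lower, with a median of -0.81. Slc2a3, the high-affinity glucose transporter, was at 8.07, 7.63 and 7.27 CPM against 987, 947 and 918 CPM, 124-fold lower (-6.95 ± 0.0434), the largest decrease of the list. Aldoc, an aldolase, was at 1.16 against 15.8 CPM. Pdk4, which blocks the entry of pyruvate into the mitochondrial cycle, was higher in granulosa cells at 19.6, 18.1 and 19.8 against 3.53, 3.93 and 3.54 CPM, and so was the lactate exporter Slc16a3 (13.3 against 4.25 CPM). In the tricarboxylic acid cycle, whose median was -0.20, 13 of 22 tested genes were called lower and 8 higher, but only Acly, the cytosolic citrate lyase, passed 2-fold (299 against 694 CPM, 2.32-fold lower).

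Serine, glycine and one-carbon genes held some of the largest decreases, with 16 of 28 at least 2-fold lower in granulosa cells, 7 at least 2-fold higher and a median of -1.22. Tdh, threonine dehydrogenase, on which mouse pluripotent cells depend, was at 761, 718 and 716 CPM in iPSCs and had no read in granulosa cells, at least 23356-fold lower. Gldc, the decarboxylase of the glycine cleavage system, was at 1.8, 1.57 and 1.4 CPM against 192, 190 and 176 CPM, and Gcat and Amt, the enzymes beside it in threonine and glycine breakdown, were lower by 4.70 and 5.38 on the log2 scale. Aldh1l2, the mitochondrial formyl-folate dehydrogenase, was higher in granulosa cells at 157, 149 and 154 against 6.25, 6.79 and 6.61 CPM, and the folate receptor Folr1 was at 48.4 against 3.44 CPM. Phgdh and Psph, which make serine, were also higher, by 1.76 and 1.56.

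Cholesterol synthesis had the largest share of decreases among the 24 pathway lists, with 18 of 23 tested genes at least 2-fold lower in granulosa cells, 2 at least 2-fold higher and a median of -1.70. Acat2, at the start of the pathway, was at 13.1, 13.9 and 13.5 CPM against 91.7, 88.3 and 90.2 CPM. Hmgcs1, an early enzyme, was at 118, 134 and 127 against 371, 371 and 379 CPM, 2.96-fold lower (-1.57 ± 0.0429, adjusted p = 1.98e-09). The exceptions were Sc5d (114, 117 and 109 against 33.7, 34.8 and 33.5 CPM) and Hsd17b7 (38.4 against 14.4 CPM), both of late steps. Srebf2, the factor that drives the pathway, was itself lower by 1.34. The steroidogenic granulosa cells thus had lower mRNA for most cholesterol synthesis enzymes than the iPSCs, while Scarb1, the HDL receptor, was higher (212 against 72.6 CPM).

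Of 36 fatty acid genes, 12 were at least 2-fold higher and 8 at least 2-fold lower, with a median of 0.31. These shares are not far from the 29.4% and 26.2% over all autosomal genes tested. Lpl, lipoprotein lipase, was at 551, 633 and 604 CPM against 18.7, 15.7 and 18.3 CPM, and Cd36, a fatty acid importer, was at 6.88 CPM against 3 reads, a ratio of 207 (counting interval 66.8 to 954). Among the oxidation enzymes, Acadl, Acadvl and Acaa2 were higher by 2.84, 2.48 and 2.23 on the log2 scale, although Acadl and Acadvl have further entries in the table. Among the synthesis and elongation enzymes, Fasn, Scd1 and Elovl6 were lower by 1.52, 2.81 and 2.65, and Elovl7 was at 2.34 against 48.4 CPM. Fabp3, which also has a further entry, was at 2.48 against 42.6 CPM. Amino acid, polyamine and nucleotide genes were lower in 15 of 27 cases by at least 2-fold and higher in 1, with a median of -1.23. Gls2, the liver-type glutaminase, was at 0.795, 0.707 and 1.4 CPM against 25.7, 24 and 24.7 CPM. Upp1, uridine phosphorylase, was at 1.38 against 162 CPM.

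Cadherins join neighbouring cells through catenins that bind actin. Of 30 cadherin and catenin genes tested, 16 were at least 2-fold higher and 8 were at least 2-fold lower, with a median of 1.82. Cdh1, E-cadherin, was at 0.412, 0.154 and 0.444 CPM in granulosa cells and at 750, 735 and 710 CPM in iPSCs, 2173-fold lower (-11.07 ± 0.313, adjusted p = 2.40e-09). Cdh2, N-cadherin, was at 697, 684 and 672 CPM against 19.6, 18.6 and 20 CPM, 35.3-fold higher. Pcdh7, a protocadherin, was at 171 against 0.0693 CPM. The neural catenins went in opposite directions, Ctnna2 being higher in granulosa cells (36.8 against 0.0709 CPM) and Ctnnd2 lower (0.0814 against 12.6 CPM). The shared cytoplasmic catenins Ctnnb1, Ctnna1 and Ctnnd1 differed by -0.44, -0.04 (adjusted p = 0.122) and 0.17.

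Tight and gap junction genes were lower in granulosa cells in 12 of 23 cases by at least 2-fold and higher in 6, with a median of -2.02. Cldn4, an epithelial claudin, was at 0.589, 0.215 and 0.0683 CPM against 226, 223 and 248 CPM. Gja1, the main connexin between granulosa cells, was at 892, 945 and 892 CPM against 69.9, 69.1 and 72.1 CPM, 12.9-fold higher. Cgn, cingulin, was at 32.3 against 4.13 CPM. Gja4, the connexin through which the oocyte and granulosa cells communicate, was low in both (0.347 and 3.58 CPM).

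Integrins bind the matrix, and focal adhesion proteins tie them to actin. Of 20 integrins tested, 16 were at least 2-fold higher and 2 were at least 2-fold lower, with a median of 2.85. Itga2 and Itga9 were at 35.7 against 0.0815 and at 113 against 1.91 CPM. Itgb1, the beta subunit shared by most of them, was at 1261, 1261 and 1228 CPM against 204, 189 and 200 CPM (2.66 ± 0.0308, adjusted p = 2.32e-11). The exceptions were Itgb7, at 0.104 against 20.7 CPM, and Itgb4, the beta subunit of hemidesmosomes, at 1.42 against 20.2 CPM. Of 31 focal adhesion and actin anchoring genes, 22 were at least 2-fold higher and 2 were at least 2-fold lower, with a median of 2.76. Cav1, caveolin 1, was at 218, 218 and 213 CPM against 2 reads, and Myl9, a myosin light chain, was at 359, 373 and 370 CPM against a mean of 0.142 CPM. The 2 decreases were Parvb (5.97 against 63.5 CPM) and Lmo7 (4.61 against 23.8 CPM), while Parva, the paralog of Parvb, was higher by 7.52.

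Of 29 immunoglobulin-type and proteoglycan adhesion molecules, 17 were at least 2-fold higher and 6 at least 2-fold lower, with a median of 1.35. Vcam1 was at 5.06, 6.36 and 5.74 CPM with no read in iPSCs, at least 163-fold higher, and the hyaluronan receptor Cd44 was at 52.2 against 0.916 CPM. Epcam, an epithelial adhesion molecule, was at 0.294, 0.799 and 0.444 CPM against 71.9, 66 and 70 CPM, and Pecam1 was at 3.08 against 86.4 CPM.

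Extracellular matrix had the largest median of the 24 pathway lists, 7.73, with 35 of 44 tested genes at least 2-fold higher in granulosa cells and 4 at least 2-fold lower. Col3a1 was at 1423, 1542 and 1528 CPM against 3 reads in all iPSC libraries, a ratio of 44964 (counting interval 14567 to 206443). Col4a1, a chain of basement membrane collagen, was at 4505, 4484 and 4512 CPM against 13, 15.5 and 15.3 CPM (8.27 ± 0.06, adjusted p = 3.29e-12). Lox, which crosslinks collagen, was at 513, 503 and 504 CPM against 2 reads, and Thbs1, thrombospondin 1, was at 3468, 3621 and 3471 CPM against 0.357, 0.533 and 0.731 CPM. Laminin alpha chains differed in opposite directions, with Lama2 at 104, 103 and 109 CPM against 0, 0.0666 and 0.219 CPM and Lama5 at 11.4, 13.4 and 14.5 CPM against 322, 349 and 349 CPM. Col18a1 was lower at 9.81 against 110 CPM. Fn1, fibronectin, was high in both (1904 and 1682 CPM, 1.13-fold).

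**Figure D4:**
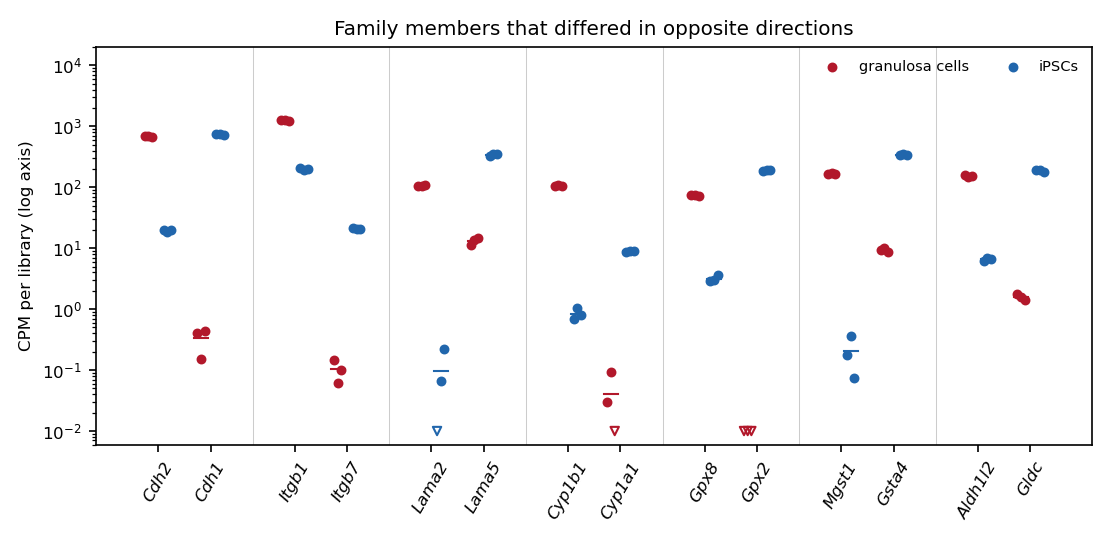
CPM on a log axis for 7 pairs of genes in granulosa cells (red) and iPSCs (blue). Each point is 1 library, the mean is a bar and an open triangle marks a library with 0 reads. The genes of a pair belong to the same list and were picked because they differed in opposite directions. In each pair the left gene is higher in granulosa cells and the right gene is higher in iPSCs, with no overlap between the groups' libraries.

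Markers of other ovarian cells were read beside these results, because in bulk samples more cells of a type and more RNA per cell cannot be told apart. All 8 tested markers of fibroblasts and stroma were at least 2-fold higher in the granulosa libraries, with summed levels of 3257 to 3499 CPM against 4.21 to 4.5 CPM in iPSCs, led by Col1a2 (1757, 1862 and 1887 CPM) and Col1a1 (1270, 1322 and 1342 CPM), which also belong to the matrix list. All 6 tested markers of smooth muscle and pericytes were higher too, at 2210 to 2272 CPM against 3.03 to 4.25 CPM, led by Acta2 at 1937, 1919 and 1872 CPM and Tagln at 205, 209 and 201 CPM. The more restricted markers Dcn, Lum and Myh11 were present at 52.2, 21.2 and 76 CPM. Fap and Rgs5, at 0.211 and 0.451 CPM in granulosa cells, did not pass the filter and were not tested. Since the iPSC levels of these lists were so low, a marker also low in granulosa cells was left untested. That all tested stromal and smooth muscle markers were higher was therefore largely set by the filter. Theca and luteal markers summed to 1482 to 1646 CPM, led by Cyp11a1, Hsd3b1, Fdx1 (ferredoxin, which passes electrons to Cyp11a1) and Star at means of 650, 574, 168 and 154 CPM, while Lhcgr, Cyp17a1 and Insl3 stood at 2.97, 0.553 and 0.0433 CPM. The part of stromal, smooth muscle and theca cells in the matrix, adhesion and steroid results was not tested.

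Marker lists of the remaining cell types had lower sums in the granulosa libraries than the stromal, smooth muscle and theca lists had there, and their source was not tested. Surface epithelium markers summed to 140 to 151 CPM in granulosa cells and to 142 to 154 CPM in iPSCs: 4 of 8 were at least 2-fold higher, among them Upk3b (13.6, 14.8 and 14.8 CPM) and Msln (11.9 against 0.778 CPM), and 2 were at least 2-fold lower, among them Krt8 (52.9 against 109 CPM). Endothelial markers summed to 19.4 to 24.6 CPM against 129 to 135 CPM, with Cdh5 at 9.45, 10.5 and 11.1 CPM and no read in iPSCs, and Vwf and Pecam1 lower in granulosa cells than in iPSCs. Macrophage and leukocyte markers summed to 19.3 to 23.1 CPM against 13.7 to 16.3 CPM, with Lyz2 at 10.5, 13.7 and 12.8 CPM and no read in iPSCs, Ptprc at 0.408 CPM in granulosa cells and Cd68 lower (3.16 against 14.9 CPM). Oocyte markers summed to 1.2 to 5.6 CPM against 11 to 11.4 CPM, the highest granulosa value being that of replicate 3. There Zp3 reached 1.02 CPM against 0.118 and 0 CPM in replicates 1 and 2, only a part of the rise in the sum. Sertoli markers summed to 42.6 to 46.3 CPM against 10.7 to 14.1 CPM, with 5 of 6 tested at least 2-fold higher and 1 lower. Sox9 and Dhh were at 19.5 and 12.9 CPM in granulosa cells, and Dmrt1 had no read there and 7.47 CPM in iPSCs.

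**Figure D5:**
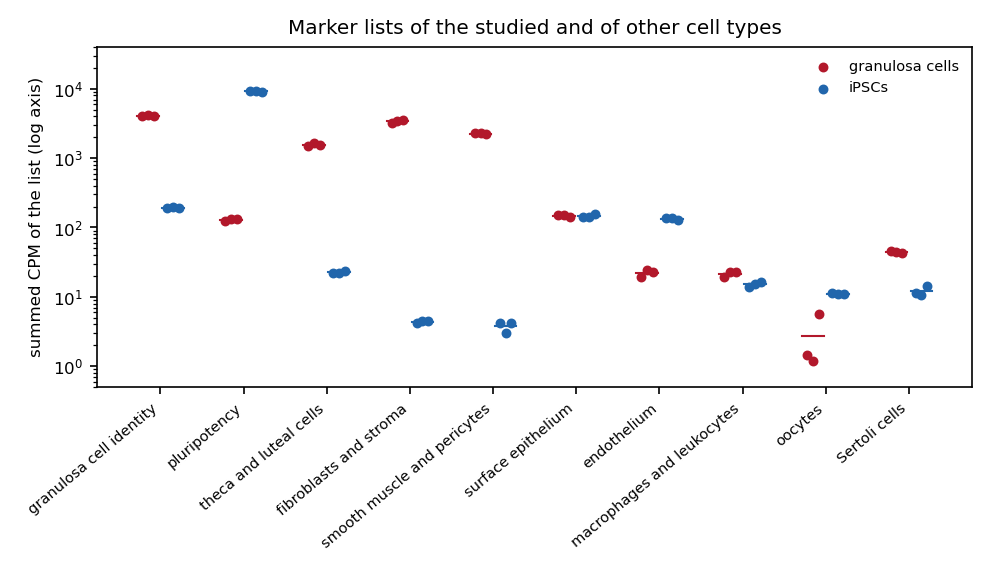
Summed CPM of the autosomal markers of 10 cell type lists on a log axis, with 1 point per library of granulosa cells (red) and iPSCs (blue) and the mean as a bar. Stromal and smooth muscle markers lie far apart between the groups, surface epithelium markers overlap, and replicate 3 of the granulosa cells stands above replicates 1 and 2 in oocyte markers.

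The same cell types exposed to 1 μM BPS were compared by an interaction test, which asks whether the difference between the cell types changed with exposure. Of 16309 autosomal genes tested in the 12 libraries, 225 were called (1.38%), 87 with a larger and 138 with a smaller value of granulosa cells relative to iPSCs under BPS. This count moved when single libraries were left out, with the filter then asking for 2 libraries in place of 3. Without replicate 3 of the iPSC vehicle it was 359. Without replicate 1, 2 or 3 of the granulosa vehicle it was 81, 107 and 82. Without replicate 1 or 2 of the iPSC vehicle it was 134 and 117. With the second iPSC experiment in place of the first it was 6. None of the steroid receptors was among the genes called (lowest adjusted p 0.0804, for Esr1). Of the genes named above, Thbs1, Krt8, Cyp1b1, Gsta4, Mt2 and Stip1 were called. The cell type difference of Mt2 changed by 0.37 on the log2 scale (adjusted p = 0.0323) and that of Stip1 by 0.19 (adjusted p = 0.0441). For each of the 6 genes the cell type difference in vehicle was larger in size than its change with BPS.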

How the data were processed

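Poly(A) RNA had been sequenced by the authors from strand-specific libraries, checked with FastQC, aligned to mm10 and counted with Rsubread, and scaled by TMM. The authors deposited log2 CPM of 22186 genes in 42 libraries, with 0.0313 CPM added to avoid logs of zero. The gene annotation and strand setting of the counting and the version of Rsubread itself are not stated in the paper or labels. Undoing the log gave whole reads (tolerance 0.05) for at least 99.9% of values. Depth limits precision through counting error, and intervals and floors cover that error only.

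Groups came from the sample labels. The deposited log2 values of the 6 libraries were tested with limma 3.58.1 (R 4.3.3; mean-variance trend, two-sided, Benjamini-Hochberg over all 17165 genes tested on all chromosomes) for genes that reached 0.5 CPM in 3 or more libraries, and were called at an adjusted p of 0.05. A count model was not used, since the deposited unit is log2. Fold changes printed as folds are ratios of mean CPM, and log2 fold changes understate the change of genes with few reads. The test was also run on simulated data, in which both groups had the granulosa means and a small part of the genes was changed. Far more genes differed in the real comparison, so the simulation cannot speak to scaling or error rate there. Coordinates, chromosomes and promoters are from RefSeq GRCm38.p6 (mm10), which held 20964 of the symbols. The other 1222 carry a suffix of a further copy and were not counted. Exon lengths are from GENCODE.

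The members and the 34 lists were chosen with earlier results of these data known. Genes named are Foxl2, Nanog, all steroid receptors, the 10 largest increases and decreases that averaged 5 CPM or more in either group without overlap, and up to 2 per list and direction by the same conditions. Other genes named were picked after their values were seen. Some genes that the rule or the text would name are not reported here. All alternatives were planned: other added CPM, filters, scalings, libraries in the fit, a replicate block, the second iPSC experiment, each library left out, and limma-voom on the recovered reads, which called 7039 autosomal genes higher and 7318 lower. Figures were made with Python 3.11.15 and matplotlib 3.10.9.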

Additional observations from a re-analysis of the deposited data

Results flagged for a closer look

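For 4 of the genes chosen by the naming rule the difference between granulosa cells and iPSCs was not the same under 1 μM BPS as in vehicle, by the interaction test of limma over 12 libraries. For Thbs1 the change was -2.10 on the log2 scale (adjusted p = 0.00258): the granulosa mean was 3520 CPM in vehicle and 3556 CPM under BPS, and the iPSC mean was 0.54 and 2.36 CPM. With the second iPSC experiment it was -0.43 and no longer called. For Cyp1b1 it was -0.89 (adjusted p = 0.0223), with 105 and 114 CPM in granulosa cells and 0.838 and 1.69 CPM in iPSCs, and it lost its call in 7 of the alternatives. For Krt8 it was -0.44 (adjusted p = 0.035), with 52.9 and 56.2 CPM in granulosa cells and 109 and 159 CPM in iPSCs, and it also lost its call in 7. For Gsta4 it was 0.63 (adjusted p = 0.0107), with 9.41 and 13.9 CPM in granulosa cells and 343 and 328 CPM in iPSCs, and it was not called in the fit of all 42 libraries or with the second iPSC experiment. Groups of 3 libraries are too small for a test of single outlying libraries. Among the granulosa vehicle libraries, log2 values of replicates 1 and 3 correlated at 0.9954. Replicate 2 correlated at 0.9913 with replicate 1 and at 0.9907 with replicate 3. The source of this difference was not tested.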

How the results depend on the processing

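The counts of called genes kept within 1.5 times under every alternative run, apart from those given here. The number at least 2-fold lower was 2709 with a CPM of at least 5 required, by the smaller number of genes tested. With 4 CPM added before the log, which shrinks the fold of low genes, the numbers at least 2-fold higher and lower were 2865 and 2443. Leaving out each library in turn gave 4663 to 4812 at least 2-fold higher and 4163 to 4320 lower. With a library left out of a fit, the filter asked for 2 libraries in place of 3. Here 15958 to 16003 autosomal genes were then tested, so these counts also reflect a larger set of genes.

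Among the lists, members at least 2-fold higher with the CPM filter of 5 were 15 peptide hormone and growth factor receptors, 4 transporters and 3 junction genes, and members lower were 5 phase II genes and 5 cadherins and catenins. With 4 CPM added these counts were 15, 4, 3, 4 and 5, and 12 other nuclear receptors were higher. With no filter, 5 steroid synthesis genes and 4 focal adhesion genes were lower, as they were in the fit of all 42 libraries (5 and 4), and 4 focal adhesion genes in the fit of 12 vehicle libraries. Genes of the tricarboxylic acid cycle at least 2-fold lower were 2 after rescaling to the upper quartile and 1 to 2 when a library was left out (2 without replicate 3 of the iPSC vehicle). With the second iPSC experiment 1 steroid receptor was lower, Nr3c2 (-1.43).

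No gene chosen by the naming rule changed direction under any alternative. The median over all genes tested moved from -0.05 to 0.00 and -0.12 by rescaling. The number of interaction calls was 134 in the fit of all 42 libraries, 391 with 4 CPM added, 6 with the second iPSC experiment, and 81 to 359 when a vehicle library was left out. The causes of these moves were not tested. The replicate numbers share only a number, with correlations of the deviations of same-numbered libraries of -0.0301, -0.0584 and 0.022. With the replicate block, 6991 genes were called higher and 7246 lower, and interaction calls were 146. Fshr and Gper1 were left out of the comparison with iPSCs by the filter on low values.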
